A study of Mus musculus with 12 samples.

Results

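The genes described here are the MYC network and the G1 cyclins: Myc, Mycn, Mycl, Max, Mxd1, Mxi1, Mnt, Ccnd1, Ccnd2 and Odc1. They were chosen by gene name, 10 of the 54532 genes in the tables, and each name was found in both tables. RNA sequencing covered 12 mouse libraries in 4 groups of 3, from small intestinal crypts and from colon tumors. The crypt groups were adult wild-type mice and adult ieCtnnb1 knockout mice, called Ctnnb1 Δi.enh in the study, which lack on both alleles, in the germline, an intestinal enhancer lying upstream of Ctnnb1, the β-catenin gene. Both tumor groups carried Apc Min/+, a germline nonsense allele of Apc, and the knockout tumor group also lacked the enhancer. The labels give no treatment for any group, and the study's methods name a C57BL/6 background. Crypts were released with EDTA and freed of villi on a filter, without sorting, and tumors were taken as whole tissue. In each tissue the question was whether loss of the enhancer went with other levels of the members. The labels give replicate numbers but do not say which animal each library came from.

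MYC, MYCN and MYCL are transcription factors that bind DNA at E-boxes as pairs with MAX and are known to raise transcription of genes for ribosome building, metabolism and cell division. MXD1, MXI1 and MNT also pair with MAX at E-boxes but recruit repressors, so they are known as antagonists of MYC. In the intestine, Myc and Ccnd1 are textbook targets of Wnt and β-catenin signaling, D cyclins activate CDK4 and CDK6 in G1, and Odc1, the entry enzyme of polyamine synthesis, is a classical MYC target.

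Levels are FPKM, fragments scaled to gene length and to depth, as deposited. The whole numbers of fragments behind the FPKM could be recovered, and they summed to between 14457896 and 16074777 in the crypt libraries and between 14648696 and 16156712 in the tumor libraries. Across the libraries 1 fragment of Myc is between 0.022 and 0.0262 FPKM. This value did not follow the summed fragments alone. It was 0.0238 FPKM in wild-type crypt replicate 1 (14457896 fragments) and 0.0262 FPKM in knockout crypt replicate 3 (14685020 fragments). The deposited FPKM thus carry a scaling of the libraries other than by these sums. The least abundant member, Mycn in crypts, rests on 24 to 47 fragments a library. Ctnnb1 (ENSMUSG00000006932), the gene next to the deleted enhancer, had 121, 134 and 123 FPKM in the wild-type crypts and 102, 104 and 105 FPKM in the knockout crypts. In tumors it had 299, 363 and 358 FPKM in the Apc Min/+ controls and 279, 248 and 250 FPKM in the knockouts. All 3 knockout libraries were below all 3 controls in each tissue. The log2 fold change of Ctnnb1, knockout over control, was -0.28 in crypts (95% interval -0.56 to 0.00, limma, Benjamini-Hochberg adjusted p = 0.849) and -0.39 in tumors (-0.69 to -0.08, adjusted p = 0.303), so neither passed the test.

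Marker genes told the tissues apart in part. Crypt libraries held the stem and Paneth cell genes, with Defa24 the most abundant and Olfm4 between 530 and 964 FPKM, while the colon genes Hoxb13 and Hoxd13 were at 0 in all 6. Other genes of the colon list were present in crypts, with Cdx1 at 98.8 to 176 FPKM, and the 8 colon genes summed to 155 to 281 FPKM in the crypt libraries. Tumor libraries also held stem and Paneth cell genes, whose 10 genes summed to 1380 to 4040 FPKM. Tumor libraries held Hoxb13 at 70.1 to 128 FPKM, Krt8 at 1280 to 1800 FPKM, and low small intestinal enterocyte genes, whose 8 genes summed to between 1.13 and 7.49 FPKM. Some libraries stood apart from the others of their group. Wild-type crypt replicate 3 had the highest Defa24, 32800 FPKM against 7360 to 10200 in the other 5 crypt libraries, and the highest Fabp6, 2620 FPKM. Among tumors, Hoxd13 was 0.0746, 65.7 and 63 FPKM in the controls and 2.85, 0.176 and 42.5 FPKM in the knockouts, and Cdx2 was 26.5 FPKM in knockout replicate 2 against at most 10.2 FPKM elsewhere. By Xist and the Y-linked genes all 6 crypt libraries were male, and tumor replicate 3 of each group was female, with Xist at 114 and 61.4 FPKM.

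No member passed the test in either tissue. The test was limma on log2(FPKM + 0.5) over genes with a mean of at least 0.5 FPKM, with p adjusted by Benjamini-Hochberg over all genes tested, and all 10 members were above that minimum in both tables. In crypts, 0 of 10 members and 0 of the 14176 genes tested (0%) had an adjusted p under 0.05, with limma and with voom on the recovered fragments, and the lowest adjusted p of any gene from limma was 0.728. At an unadjusted p under 0.05, 829 genes passed with limma and 805 with voom in crypts, and 0 of 10 members. The limma share was 3.48% with the knockout higher and 2.36% with it lower. Without wild-type replicate 3, 3 genes passed the adjusted threshold in crypts, none of them a member. Groups did not overlap for 6.79% of the crypt genes with the knockout higher and 5.15% with it lower, and for 0 of 10 members. In tumors, 0 of 10 members and 0 of 16743 genes (0%) passed with limma and with voom, the lowest adjusted p from limma being 0.269. At an unadjusted p under 0.05, 2421 tumor genes passed with limma and 2541 with voom. The limma genes were 8.46% of those tested with the knockout higher, Mxd1 among them, and 6% with it lower, Mycl among them. Those members were also the ones whose tumor groups did not overlap, 1 of 10 in each direction, against 11.4% of all tested genes higher and 10.6% lower. The members' counts were therefore near the background in both tissues. Their median log2 fold change was 0.03 in crypts and 0.06 in tumors, against 0.014 and 0.008 over all genes tested. With 3 libraries against 3, the exact two-sided permutation test cannot give a p below 0.1.

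**Figure D1:**
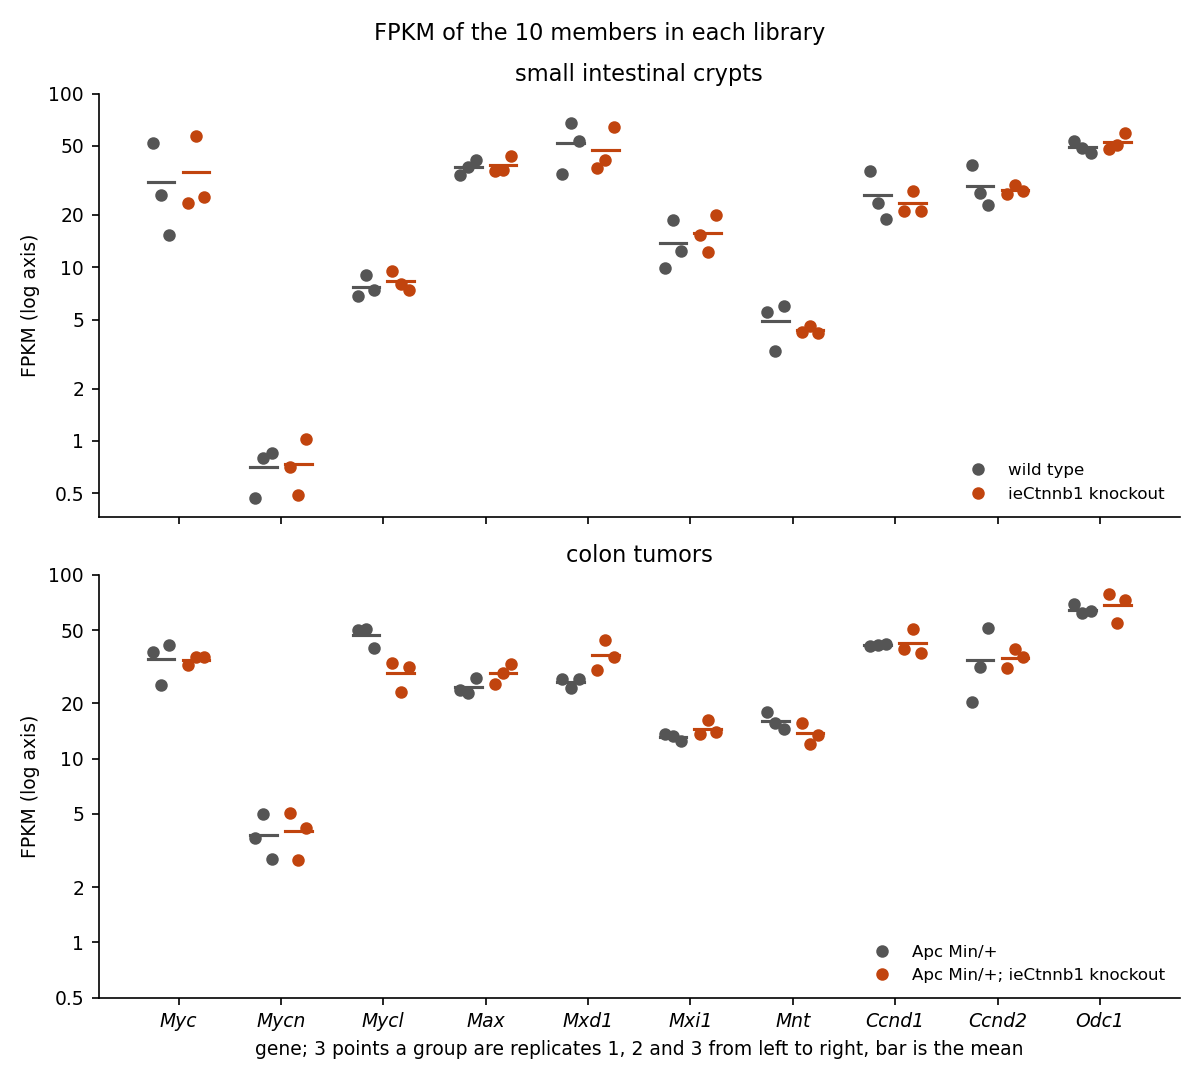
FPKM on a log axis of each of the 10 members, with wild type or Apc Min/+ controls in grey and ieCtnnb1 knockouts in orange, 3 points a group for replicates 1, 2 and 3 from left to right and a bar at the mean. The groups overlap for every member in crypts, and in tumors for all but Mycl, lower in the knockouts, and Mxd1, higher in them.

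Myc (ENSMUSG00000022346, chr15:61985391-61990374, build mm10), the family member known as the main driver of growth in crypts, varied more between crypt libraries of 1 genotype than between the genotypes. It had 51.6, 26.2 and 15.3 FPKM in the wild-type crypts and 23.4, 56.7 and 25.4 FPKM in the knockouts. One library of each group, wild-type replicate 1 and knockout replicate 2, was far above the other 4, and the groups overlap. The means were 31 ± 18.6 FPKM and 35.2 ± 18.7 FPKM (SD, n = 3 each), and the log2 fold change was 0.23 with an interval of -0.94 to 1.40 (limma, Benjamini-Hochberg adjusted p = 0.966). That interval spans lower and higher levels, and leaving out 1 library moved the estimate between -0.18 and 0.68. In tumors Myc had 38.2, 25 and 41.4 FPKM in the controls and 32.1, 35.6 and 35.8 FPKM in the knockouts. The knockout tumors lay inside the range of the controls. Its estimate there was 0.02 on the log2 scale (-0.44 to 0.47, limma adjusted p = 0.975 by Benjamini-Hochberg), and it was -0.09 to -0.10 under 3 other scalings of the libraries.

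Mycl (ENSMUSG00000028654, chr4:122995652-123002485), the family member first found in lung cancer, was the member with the smallest p in tumors. It had 49.8, 50.5 and 40 FPKM in the Apc Min/+ tumors and 32.9, 23.1 and 31.3 FPKM in the tumors that also lacked the enhancer. Every knockout tumor was below every control tumor, and knockout replicate 2 was the lowest. The means were 46.8 ± 5.9 FPKM and 29.1 ± 5.3 FPKM (SD, n = 3 each), and the fold estimated by limma on the log scale was 0.622. The log2 fold change was -0.68 (-1.07 to -0.29), with an adjusted p of 0.269 from limma (Benjamini-Hochberg) and an exact permutation p of 0.1, the smallest possible. It was between -0.79 and -0.53 when 1 library was left out, and -0.85 among the male libraries alone, an alternative chosen after seeing the data. Its adjusted p from limma or voom (Benjamini-Hochberg) ran from 0.202 to 0.681 over the alternatives. In bulk tissue, fewer cells of a type and less RNA per cell cannot be told apart.

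In crypts Mycl did not separate the genotypes, with 6.85, 9.02 and 7.36 FPKM in wild type and 9.45, 8.04 and 7.4 FPKM in the knockouts. The groups overlap, and the log2 fold change was 0.10 (-0.26 to 0.45, limma, Benjamini-Hochberg adjusted p = 0.949). The difference of the knockout effects, tumors minus crypts, was tested over 13370 genes with the interaction of tissue and genotype in limma. No gene passed (0%) by limma with Benjamini-Hochberg, the lowest adjusted p being 0.193, and 1133 genes (8.47%) had an unadjusted p under 0.05. Voom was not run for the difference. Mycl was the 1 member of 10 among those, with a difference of -0.78 on the log2 scale (-1.28 to -0.28, limma, Benjamini-Hochberg adjusted p = 0.5). For the other 9 members the differences ran from -0.21 for Myc to 0.57 for Mxd1, and each interval held 0.

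Mycn (ENSMUSG00000037169, chr12:12936093-12941914), best known from neuroblastoma and the embryo, was the least abundant member in both tables. It had 0.47, 0.794 and 0.852 FPKM in wild-type crypts and 0.708, 0.489 and 1.02 FPKM in knockout crypts. In tumors it had 3.71, 5 and 2.86 FPKM in the controls and 5.07, 2.8 and 4.2 FPKM in the knockouts. The groups overlap in both tissues. Its log2 fold changes, 0.03 in crypts and 0.05 in tumors, carry intervals of -0.56 to 0.63 and -0.55 to 0.65, and the added 0.5 FPKM draws values of so low a gene toward 0. The tumor estimate was -0.05 when libraries were rescaled to the same total FPKM.

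Within a library, the shares of the 3 MYC genes do not depend on its scaling. Myc made up 87.6, 72.7 and 65% of their summed FPKM in wild-type crypts and 69.7, 86.9 and 75.1% in knockout crypts, so it was the largest part in each crypt library and the groups overlap. In tumors Myc made up 41.7, 31 and 49.1% in the controls and 45.8, 58 and 50.2% in the knockouts. Mycl made up 54.3, 62.8 and 47.5% in the control tumors and 47, 37.5 and 43.9% in the knockout tumors, with every knockout below every control. The summed FPKM of the 3 genes was 91.8, 80.5 and 84.2 in the control tumors and 70.1, 61.5 and 71.3 in the knockouts. These sums did not overlap, but Mycl is part of both the sum and its own share. These shares are a description and were not tested.

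**Figure D2:**
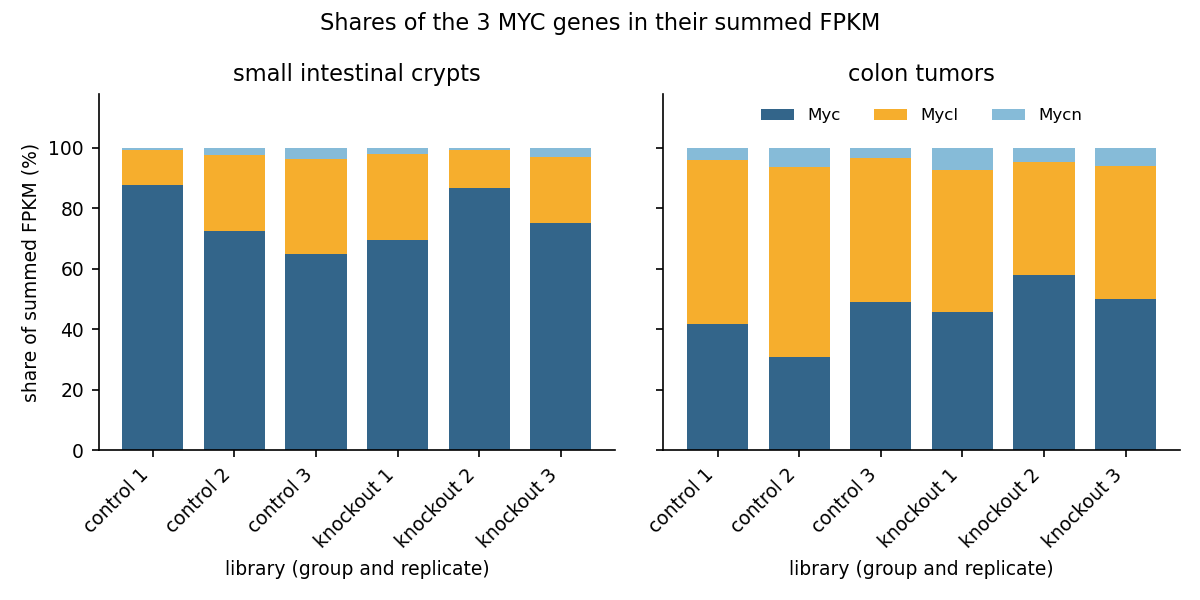
Stacked bars give the share in percent of Myc, Mycl and Mycn in their summed FPKM, 1 bar a library, for crypts and for tumors. Myc is the largest share in all 6 crypt libraries, and the Mycl share is 47.5 to 62.8% in control tumors and 37.5 to 47% in knockout tumors.

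Max (ENSMUSG00000059436, chr12:76937269-76962201), the partner that the MYC proteins and their antagonists share, had the smallest ratio of highest to lowest library of the 10 members in crypts, 1.29, at 34, 37.8 and 41.3 FPKM in wild type and 35.6, 36.4 and 43.6 FPKM in the knockouts. In tumors it had 23.7, 22.7 and 27.3 FPKM in the controls and 25.5, 29.2 and 32.7 FPKM in the knockouts. Groups overlap in both tissues, in tumors through 1 control library above 1 knockout library. Max had a log2 fold change of 0.03 in crypts and 0.24 in tumors (-0.05 to 0.53, limma, Benjamini-Hochberg adjusted p = 0.4), and the crypt estimate was -0.05 with quantile normalization.

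Mxd1 (ENSMUSG00000001156, chr6:86647042-86669161), the antagonist known to come up as cells leave the cycle and differentiate, was the member with the next smallest p in tumors. It had 27.2, 24.3 and 27.1 FPKM in the control tumors and 30.5, 44.1 and 35.8 FPKM in the knockouts. Every knockout tumor was above every control, and knockout replicate 2, the library lowest in Mycl, was the highest. The means were 26.2 ± 1.64 FPKM and 36.8 ± 6.88 FPKM (SD, n = 3 each), and the fold estimated by limma on the log scale was 1.38. The log2 fold change was 0.47 (0.13 to 0.81), with an adjusted p of 0.293 from limma (Benjamini-Hochberg) and an exact permutation p of 0.1. Without 1 library it ran from 0.33 to 0.60, and over all alternatives its adjusted p from limma or voom (Benjamini-Hochberg) ran from 0.231 to 0.693. Under the 3 other scalings and among the male libraries alone its unadjusted p was no longer under 0.05. In crypts Mxd1 had 34.4, 67.3 and 53.1 FPKM in wild type and 37.5, 41.2 and 63.9 FPKM in the knockouts, with overlapping groups. Its crypt log2 fold change was -0.10 (-0.80 to 0.59, limma, Benjamini-Hochberg adjusted p = 0.979), and it was 0.04 when libraries were rescaled to the same total FPKM.

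Mxi1 (ENSMUSG00000025025, chr19:53310506-53375810), an antagonist of the same family as Mxd1, had 9.93, 18.8 and 12.4 FPKM in wild-type crypts and 15.4, 12.2 and 19.9 FPKM in knockout crypts. In tumors it lay between 12.5 and 16.2 FPKM in all 6 libraries. Mnt (ENSMUSG00000000282, chr11:74830920-74845725), an antagonist expressed in cycling and resting cells alike, had 5.49, 3.31 and 5.98 FPKM in wild-type crypts and 4.23, 4.58 and 4.19 FPKM in the knockouts. In tumors Mnt had 18, 15.7 and 14.5 FPKM in the controls and 15.6, 12 and 13.5 FPKM in the knockouts. Groups overlap for both genes in both tissues. The log2 fold changes were 0.22 and 0.14 for Mxi1 and -0.13 and -0.22 for Mnt, in crypts and tumors in that order, and the crypt value of Mnt was 0.00 after rescaling to the same total FPKM. The summed FPKM of Mxd1, Mxi1 and Mnt was 0.965, 3.42 and 4.68 times that of Myc in wild-type crypts and 2.45, 1.02 and 3.45 times in knockout crypts. In tumors this ratio was 1.54, 2.13 and 1.31 in the controls and 1.86, 2.03 and 1.77 in the knockouts. The lowest ratios are those of the crypt libraries highest in Myc, which is the denominator of the ratio. The groups overlap in both tissues.

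Stretches of the promoter windows of Mnt, Max and Mxd1 are shown, for Mnt and Mxd1 the bases upstream of the first exon and for Max 30 bases around the E-box, because these are the network genes in which an E-box was found (Mnt, Max) and the antagonist whose tumor groups did not overlap (Mxd1). RefSeq windows (GRCm38.p6), from 250 bases before to 50 after a start, were at hand for 7 members with 9 windows (Mycl, Mycn, Max, Mxd1, Mxi1, Mnt and Odc1) and not for Myc, Ccnd1 and Ccnd2. The E-box CACGTG, which reads the same on both strands, was in 2 of the 9 windows, 1 each of Mnt and Max, against 7.15% of 32851 windows of that length. The TCF/LEF letters CTTTGAT, searched on both strands, were in 0 of the 9, against 3.73%. Capitals mark the E-box, whose first base lies 123 bases before the start in Mnt (chr11:74830674-74830919, plus strand) and 3 bases before it in Max (chr12:76962234-76962263, minus strand), where the motif runs across the start, and the window of Mxd1 (shown: chr6:86669162-86669409, minus strand) has none. A match is a run of letters and not a measured binding site.
Mnt: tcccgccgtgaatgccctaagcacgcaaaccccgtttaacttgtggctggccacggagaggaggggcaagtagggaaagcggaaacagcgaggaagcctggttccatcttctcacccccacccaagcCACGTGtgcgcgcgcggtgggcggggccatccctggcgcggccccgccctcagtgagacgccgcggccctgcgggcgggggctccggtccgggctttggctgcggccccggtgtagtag
Max: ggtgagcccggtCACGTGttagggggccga
Mxd1: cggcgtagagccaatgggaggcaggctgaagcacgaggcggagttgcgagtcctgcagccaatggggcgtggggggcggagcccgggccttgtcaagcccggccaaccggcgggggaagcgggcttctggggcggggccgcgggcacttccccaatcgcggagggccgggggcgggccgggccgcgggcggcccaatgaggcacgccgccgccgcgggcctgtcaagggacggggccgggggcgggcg

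Ccnd1 (ENSMUSG00000070348, chr7:144929931-144939925), the D cyclin known as a Wnt target, had 35.6, 23.5 and 19 FPKM in wild-type crypts and 21.2, 27.6 and 21.1 FPKM in the knockouts. Wild-type replicate 1 was the highest, as knockout replicate 2 was within its own group, and the groups overlap. In tumors Ccnd1 had 40.9, 41.5 and 42.2 FPKM in the controls and 39.4, 50.9 and 37.5 FPKM in the knockouts. The controls were close together and lay inside the range of the knockouts. The log2 fold change was -0.12 in crypts (-0.69 to 0.45, limma, Benjamini-Hochberg adjusted p = 0.964) and 0.02 in tumors (-0.28 to 0.32, adjusted p = 0.953), and both signs turned after rescaling to the same total FPKM (0.02 and -0.09). Of the 4709 exon bases of Ccnd1, 1100 (23.4%) are shared with Oraov1 on the opposite strand, which had 1.88 to 3.55 FPKM in crypts and 3.27 to 4.38 FPKM in tumors. Use of strand in counting is not given in the sources used here, so fragments of the 2 genes there cannot be told apart.

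Ccnd2 (ENSMUSG00000000184, chr6:127125162-127152193), the D cyclin also known from pancreatic islets and ovary, had 38.6, 26.8 and 22.9 FPKM in wild-type crypts and 26.5, 29.8 and 27.5 FPKM in the knockouts. It had 20.4, 31.6 and 51.3 FPKM in the control tumors and 31, 39.3 and 35.5 FPKM in the knockout tumors. In both tissues the knockouts lay inside the range of the controls. Ccnd2 had a log2 fold change of -0.04 in crypts, where it was 0.10 after rescaling to the same total FPKM, and 0.13 in tumors (-0.62 to 0.87, limma, Benjamini-Hochberg adjusted p = 0.868). Ccnd1 made up 45.4, 43.4 and 41.8% of the summed FPKM of the 3 D cyclin genes in wild-type crypts and 42, 45.3 and 40.5% in knockout crypts. In tumors its share was 61.1, 52.7 and 42.7% in the controls and 50.8, 52.3 and 46.1% in the knockouts. Ccnd1 and Ccnd2 thus held all but 5.41 to 7.76% of the D cyclin FPKM in crypts, the rest being Ccnd3.

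Odc1 (ENSMUSG00000011179, chr12:17544794-17551505) had the highest mean of the 10 members over the 6 libraries of each table, though in the wild-type crypts alone Mxd1 (51.6 FPKM) was above it (49.1 FPKM). It had 53.4, 48.8 and 45.2 FPKM in wild-type crypts and 47.8, 50.8 and 59.1 FPKM in knockout crypts. In tumors it had 68.9, 61.7 and 63.4 FPKM in the controls and 78.9, 54.3 and 72.6 FPKM in the knockouts, with knockout replicate 2 the lowest of the 6. Groups overlap in both tissues. The log2 fold changes were 0.09 in crypts (-0.22 to 0.41), where quantile normalization gave -0.04, and 0.07 in tumors (-0.29 to 0.43), where it gave -0.07.

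In order of mean FPKM over the 6 crypt libraries, Odc1 (50.9) was followed by Mxd1 (49.5), Max (38.1), Myc (33.1), Ccnd2 (28.7), Ccnd1 (24.7) and Mxi1 (14.8), and each of these overlaps its neighbour in range. Mycl (8.02), Mnt (4.63) and Mycn (0.722) came below them, with ranges that touch neither each other nor Mxi1. In tumors, again over all 6 libraries, Odc1 (66.6) was above all others in range. Ccnd1 (42.1), Mycl (37.9), Ccnd2 (34.8), Myc (34.7), Mxd1 (31.5) and Max (26.8) followed with overlapping neighbours, then Mnt (14.9) and Mxi1 (13.8), which overlap each other, and last Mycn (3.94). By group means the place of Mycl differed between the tumor groups. Its mean of 46.8 FPKM was above that of Ccnd1 (41.6 FPKM) in the controls. In the knockouts its 29.1 FPKM was below Ccnd1 (42.6), Mxd1 (36.8), Ccnd2 (35.3) and Myc (34.5). The libraries of Mycl overlap in range with those of Ccnd1 in the controls, and with those of Mxd1, Ccnd2 and Myc in the knockouts. The tables may have been normalized separately, so levels are compared within a table.

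**Figure D3:**
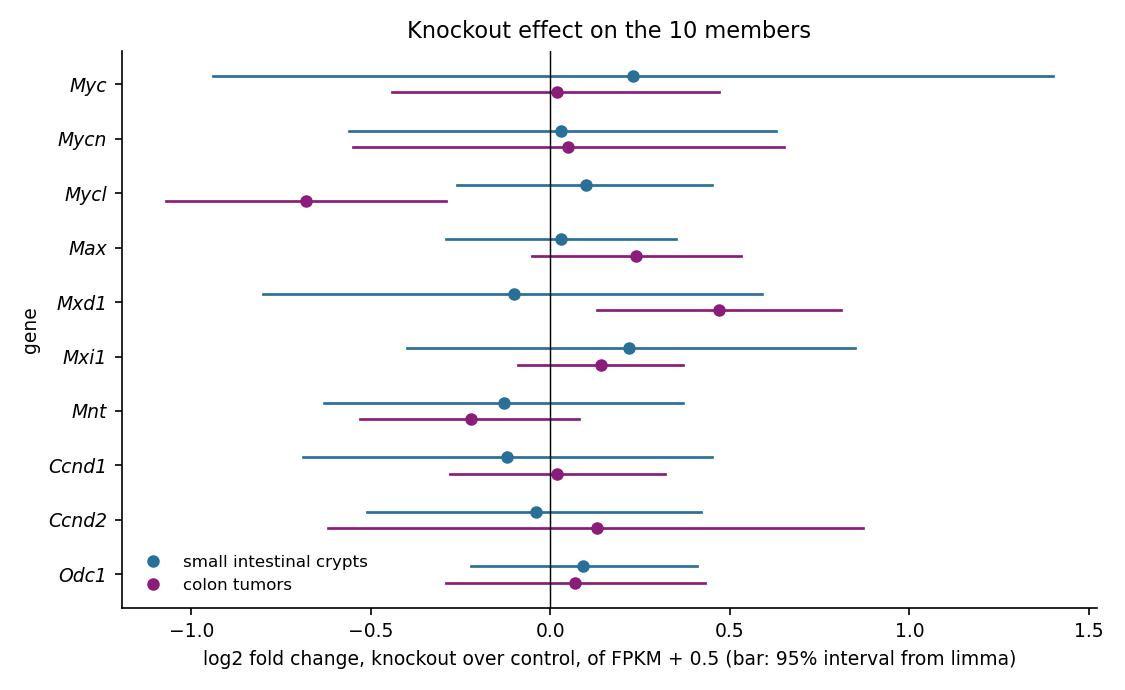
Log2 fold change of each member, knockout over control, with its 95% interval from limma, for crypts (blue) and tumors (purple). The intervals of Mycl (-1.07 to -0.29) and Mxd1 (0.13 to 0.81) in tumors leave out 0 and all others hold it, and estimates close to 0 change sign under other scalings, among them Myc, Mycn, Ccnd1 and Odc1 in tumors.

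Among crypt libraries the members did not vary alone. Wild-type replicate 1, with Myc at 51.6 FPKM and the highest Ccnd1 and Ccnd2, had the highest value for 32 of 39 textbook MYC target genes (82.1%), against 20.3% of all genes tested. It also had the highest value for 10 of 16 proliferation markers (62.5%). Knockout replicate 2, with still more Myc (56.7 FPKM), had the highest value for 3 of the 39 target genes (7.69%), against 14.5% of all genes tested, and for 4 of the 16 proliferation markers (25%). The summed FPKM of the 39 target genes was 2050, 1490 and 1650 in wild type and 1820, 1970 and 1680 in the knockouts. It was highest in the libraries highest in Myc, but lowest in wild-type replicate 2 and not in replicate 3, which had the least Myc. The proliferation markers summed to 388, 301 and 281 FPKM in wild type and 359, 368 and 315 FPKM in the knockouts. The 8 enterocyte genes, with Fabp2 the most abundant, summed to 3230, 5620 and 11700 FPKM in wild type and 7630, 5770 and 8620 FPKM in the knockouts, lowest in wild-type replicate 1 and highest in replicate 3, the library lowest in Myc. Their part in the values of Myc was not tested.

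**Figure D4:**
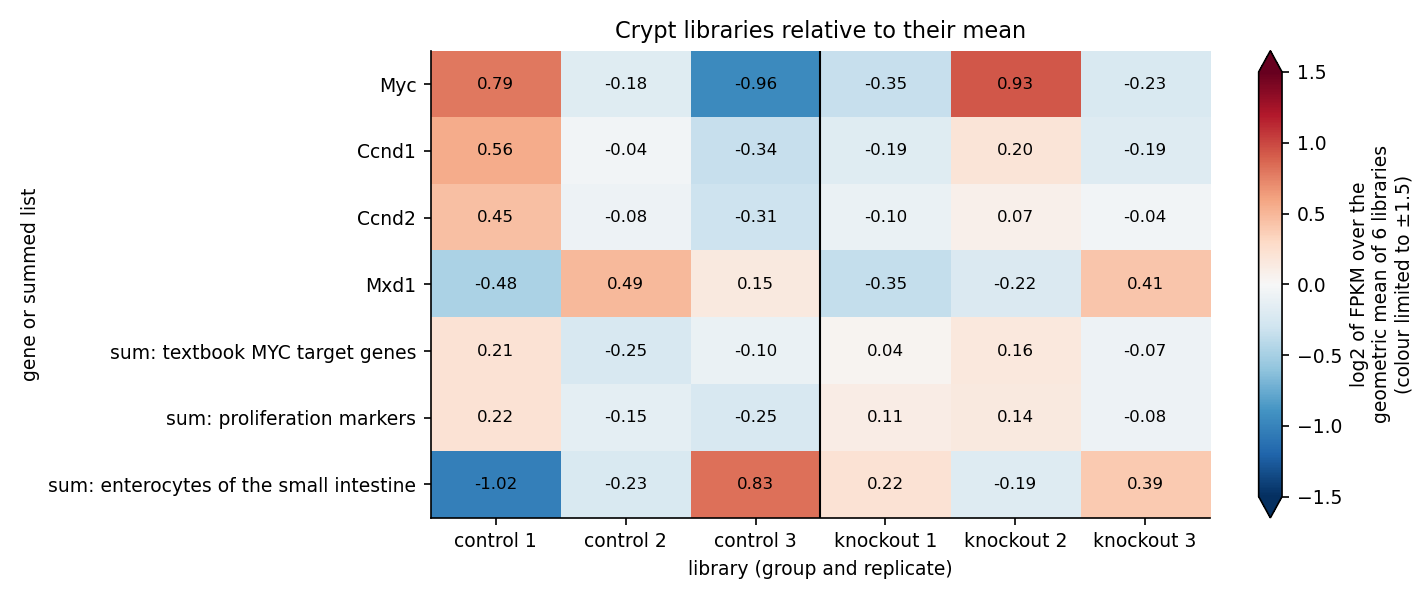
Each cell gives log2 of the FPKM of a gene or a summed list in 1 crypt library over its geometric mean in the 6 libraries, with wild type as control and colour limited to 1.5 on either side of 0. Myc is 0.79 in wild-type replicate 1, 0.93 in knockout replicate 2 and -0.96 in wild-type replicate 3, where the enterocyte sum is 0.83.

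In crypts the further MAX and MLX network genes, cofactors, G1 genes, MYC target genes and proliferation markers held at most 1 gene a list with an unadjusted p under 0.05. Over all genes tested in crypts, 3.48% were higher and 2.36% lower at that p. Without overlap, 6.79% were higher and 5.15% lower. Of the rest of the MAX and MLX network, 0 of 6 genes had an unadjusted p under 0.05, with a median log2 fold change of -0.01. Mlxipl, the glucose-responsive factor also known as ChREBP, had 32.6, 22.9 and 27.8 FPKM in wild type and 38.1, 33.6 and 30.8 FPKM in the knockouts. Mxd4, a further antagonist, had 5.03, 6.24 and 7.08 FPKM in wild type and 4.98, 5.59 and 5.62 FPKM in the knockouts. Both pairs of groups overlap. Of 18 MYC cofactors and stability factors, 0 had an unadjusted p under 0.05, the median was 0.05, and 1 did not overlap, Fbxw7, a ubiquitin ligase subunit that targets MYC, lower in the knockouts (named after its values were seen). Of the G1 cyclins, CDKs, inhibitors and pocket proteins, 19 of 20 were tested and 0 had an unadjusted p under 0.05, with a median of 0.02. Cdkn2a was below the minimum. Cdk4, a kinase that D cyclins activate, had 46.8, 36.1 and 39.5 FPKM in wild type and 46.7, 47.9 and 39.4 FPKM in the knockouts. Of the 39 MYC target genes, an unadjusted p under 0.05 was reached by 1 higher and 0 lower, with a median of -0.03. Ldha, lactate dehydrogenase, was the 1, with 285, 258 and 284 FPKM in wild type and 346, 357 and 386 FPKM in the knockouts, higher in 3 of 3. Its log2 fold change was 0.40 (0.06 to 0.73, limma, Benjamini-Hochberg adjusted p = 0.806). Cad, an enzyme of pyrimidine synthesis, lay the other way, with 10.3, 8.67 and 7.94 FPKM in wild type and 6.96, 6.36 and 7.92 FPKM in the knockouts. Of 16 proliferation markers 0 had an unadjusted p under 0.05, the median was 0.18, and Mki67 was 31.1, 20.6 and 16.4 FPKM in wild type and 24.1, 24.1 and 20.9 FPKM in the knockouts.

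Of the polyamine pathway around Odc1, these genes are given for crypts. Oaz1, the antizyme that directs ODC1 to degradation, had 123, 115 and 135 FPKM in wild type and 163, 159 and 152 FPKM in the knockouts, with every knockout library above every wild-type library and a log2 fold change of 0.35 (0.05 to 0.65, limma, Benjamini-Hochberg adjusted p = 0.811). Smox, spermine oxidase, had 3.93, 4.9 and 5.85 FPKM in wild type and 3.06, 4.17 and 3.77 FPKM in the knockouts, with overlap.

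Cell type markers in crypts gave these counts at an unadjusted p under 0.05. Over all genes tested in crypts, 3.48% were higher and 2.36% lower at that p. Of 10 stem and Paneth cell genes 0 were higher and 1 was lower, Mmp7 (named after its values were seen), with a median log2 fold change of -0.48 and sums of 21200, 30800 and 55700 FPKM in wild type and 22900, 20200 and 22000 FPKM in the knockouts. Of 8 enterocyte genes 0 passed, with a median of 0.49, and of 7 epithelium genes 0, with a median of -0.03 and Krt8 the most abundant. Of 8 colon genes 4 were tested and 2 were higher, with a median of 0.34 and Cdx1 the most abundant. Of 6 goblet cell genes 0 passed, with a median of -0.29 and Tff3 the most abundant. Genes of other cell types were also present. The fibroblast and smooth muscle genes summed to 7.34 to 15.3 FPKM (3 of 10 tested, 1 lower, median -0.54, Vim the most abundant). The endothelium genes summed to 0.627 to 0.883 FPKM (1 of 4 tested, 0 passed, median -0.11). Leukocyte genes summed to 45.5 to 57.7 FPKM (8 of 10 tested, 0 passed, median -0.19, Cd8a the most abundant), and erythrocyte genes to 4.3 to 16.1 FPKM (2 of 3 tested, 0 passed, median -0.63). Their part in the members' values was not tested.

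In tumors, the genes of the network's other lists with an unadjusted p under 0.05 were all lower in the knockouts among the MAX and MLX network and the cofactors. Without overlap of the groups, 1 gene was higher in each of these lists, Mlx and Sin3b. In the same order of lists, 1 and 5 genes were lower without overlap. Of 6 further MAX and MLX network genes 0 were higher and 1 was lower, with a median log2 fold change of 0.00. Mga, a MAX partner that recruits a repressor complex, was the 1, with 6.08, 6.23 and 6.76 FPKM in the controls and 5.01, 5.62 and 4.57 FPKM in the knockouts, lower in 3 of 3. Mxd4 had 14.3 to 17.1 FPKM in the 6 tumors. Of 18 cofactors and stability factors 0 were higher and 4 lower (Trrap, Sin3a, Ep400 and Huwe1, the last 2 named after their values were seen), with a median of -0.07. Trrap, the scaffold that MYC recruits with acetyltransferases, had 10.5, 11.4 and 11.2 FPKM in the controls and 9.5, 9.28 and 8.53 FPKM in the knockouts. Sin3a, a corepressor scaffold bound by the MXD proteins, had 17.4, 18.4 and 20.5 FPKM in the controls and 16.2, 15.6 and 15 FPKM in the knockouts. For both, every knockout tumor was below every control, and the log2 fold change was -0.26, with adjusted p = 0.302 for Trrap and 0.312 for Sin3a (limma, Benjamini-Hochberg). The 4 of 18 can be set beside the 6% of all tumor genes tested that were lower with an unadjusted p under 0.05. Without overlap, 5 of the 18 were lower, against 10.6% of all genes tested. In the other direction, 8.46% of all genes tested had such a p and 11.4% did not overlap. No test over the list was made.

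Of 20 G1 cyclins, CDKs, inhibitors and pocket proteins, 3 were higher in knockout tumors and 1 lower at an unadjusted p under 0.05, with a median log2 fold change of 0.02. Over all genes tested in tumors, 8.46% were higher and 6% lower. Groups did not overlap for 4 of the list higher and 2 lower, against 11.4% and 10.6% of all genes tested. Ccnd3, the third D cyclin, had 5.68, 5.71 and 5.36 FPKM in the controls and 7.21, 7.16 and 8.34 FPKM in the knockouts. All knockouts were above all controls, and the log2 fold change was 0.40 (0.17 to 0.64, limma, Benjamini-Hochberg adjusted p = 0.269). In crypts Ccnd3 had 4.25, 3.88 and 3.52 FPKM in wild type and 2.77, 3.54 and 3.47 FPKM in the knockouts, and the difference of the effects was 0.63 (0.27 to 0.99, limma, Benjamini-Hochberg adjusted p = 0.456). Cdkn2b, the inhibitor p15 of CDK4 and CDK6, had 19.5, 20.3 and 18.7 FPKM in the controls and 24.4, 28.4 and 23.3 FPKM in the knockouts. Cdkn1a, the inhibitor p21 and a gene that MYC is known to repress, had 47.6, 46.1 and 57 FPKM in the controls and 59.3, 74.2 and 76.6 FPKM in the knockouts. Neither gene's groups overlap, and their log2 fold changes were 0.37 and 0.47, with adjusted p = 0.272 and 0.282 (limma, Benjamini-Hochberg). E2f3, a transcription factor of the entry into S phase, was the gene lower, at 9.51, 11.7 and 11.9 FPKM in the controls and 9.44, 8.65 and 8.28 FPKM in the knockouts. The kinases that D cyclins activate overlap between the groups, with Cdk4 between 72.6 and 106 FPKM and Cdk6 between 4.86 and 6.29 FPKM.

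Of 16 polyamine pathway genes in tumors, an unadjusted p under 0.05 was reached by 1 higher in the knockouts and by 0 lower, with a median log2 fold change of 0.13. Sat1, which acetylates polyamines for export and breakdown, had 67.4, 61.2 and 60.2 FPKM in the controls and 75, 79.1 and 88.6 FPKM in the knockouts, without overlap (log2 fold change 0.36, limma, Benjamini-Hochberg adjusted p = 0.278). Of 39 MYC target genes in tumors 1 was higher and 2 were lower at that p, with a median of 0.02. The shares of all tumor genes tested were 8.46% and 6% in the same order. Without overlap of the groups, 0 of the 39 were higher and 4 lower, against 11.4% and 10.6% of all genes tested. Hspe1, a mitochondrial chaperonin, had 65.2, 48.1 and 43.8 FPKM in the controls and 72.9, 60.4 and 99.8 FPKM in the knockouts, with overlap. Tert, the catalytic subunit of telomerase, had 3.49, 3.83 and 3.96 FPKM in the controls and 2.21, 2.96 and 2.74 FPKM in the knockouts, all below the controls (log2 fold change -0.45, limma, Benjamini-Hochberg adjusted p = 0.293). Slc7a5, an amino acid transporter, had 24.7, 21.7 and 22.1 FPKM in the controls and 20, 18.4 and 16.3 FPKM in the knockouts, also without overlap. Of 16 proliferation markers 0 had an unadjusted p under 0.05, the median was -0.03, and Mki67 was 25.1, 27.2 and 23.3 FPKM in the controls and 25.7, 20.7 and 25.4 FPKM in the knockouts.

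Markers of some cell types also separated the tumor groups, as Mycl and Mxd1 did, though none passed the adjusted threshold. All 6 goblet cell genes were higher in the knockouts at an unadjusted p under 0.05 and without overlap, with a median log2 fold change of 1.05. Over all genes tested in tumors, 8.46% were higher at that p and 11.4% were higher without overlap. Their summed FPKM was 1300, 1320 and 1340 in the controls and 2480, 2950 and 2670 in the knockouts, highest in knockout replicate 2, the library lowest in Mycl and highest in Mxd1. The most abundant, Spink4, had 499, 601 and 637 FPKM in the controls and 1200, 1180 and 1070 FPKM in the knockouts. Its adjusted p was 0.269 (limma, Benjamini-Hochberg). Of 7 epithelium genes 2 were higher at an unadjusted p under 0.05 and 6 did not overlap, with a median of 0.35, Krt8 the most abundant and sums of 3250, 3140 and 2850 FPKM in the controls and 3730, 3710 and 3800 FPKM in the knockouts. None of the goblet or epithelium genes was at 0. Of 10 fibroblast and smooth muscle genes 5 were higher, with a median of 0.32, Vim the most abundant and sums of 623, 467 and 538 FPKM in the controls and 640, 728 and 680 FPKM in the knockouts. The part of these cell types in the values of Mycl and Mxd1 was not tested.

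The other marker lists in tumors gave these counts at an unadjusted p under 0.05. Over all genes tested in tumors, 8.46% were higher and 6% lower at that p. Of 8 colon genes 2 were higher (median 0.28, Hoxb13 the most abundant), and of 4 endothelium genes 1 was higher (median 0.05, Cdh5 the most abundant). Of the leukocyte genes 7 of 10 were tested and 2 were lower, S100a8 and S100a9 (named after their values were seen), with a median of -0.01 and sums of 588, 679 and 741 FPKM in the controls and 541, 595 and 446 FPKM in the knockouts. Of the stem and Paneth cell genes 9 of 10 were tested, 0 passed, and the median was 0.22, with Lyz1 the most abundant and sums of 1650, 1800 and 1940 FPKM in the controls and 2580, 4040 and 1380 FPKM in the knockouts. Knockout replicate 2 was the highest library for 6 of those 9 genes (66.7%), against 19.7% of all genes tested, and the part of these markers in the values of Mycl and Mxd1 was not tested. Of the small intestinal enterocyte genes 2 of 8 were tested, 0 passed, and the median was 0.62. Of 3 erythrocyte genes 0 passed (median 0.06), and their sums of 284, 318 and 216 FPKM in the controls and 573, 45.4 and 955 FPKM in the knockouts put knockout replicate 2 far below the others. Without knockout replicate 2 the log2 fold change was -0.53 for Mycl and 0.33 for Mxd1.

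**Figure D5:**
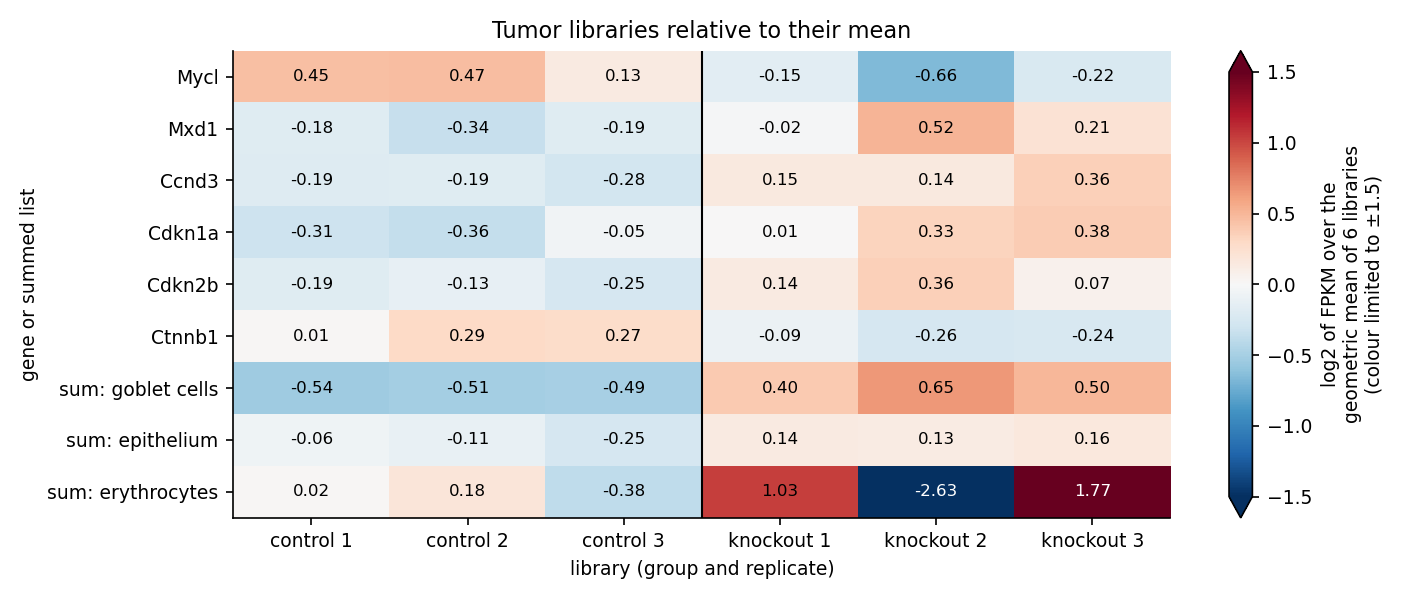
Each cell gives log2 of the FPKM of a gene or a summed list in 1 tumor library over its geometric mean in the 6 libraries, with Apc Min/+ as control and colour limited to 1.5 on either side of 0. Knockout replicate 2 has the lowest Mycl (-0.66), the highest Mxd1 (0.52), the highest goblet cell sum (0.65) and the lowest erythrocyte sum (-2.63).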

How the data were processed

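RNA sequencing of 12 mouse libraries was used. The authors sequenced paired ends at Novogene, aligned with Hisat2 and counted with featureCounts, and the labels also list cutadapt, Cufflinks 2.2.1, DESeq2 and the build mm10. The deposited values are FPKM, in 1 table a tissue, and use of strand and the way FPKM was computed are not given in the sources used here. Gene positions of 53462 of 54532 genes match GENCODE M21. Fragments were recovered as whole numbers (tolerance 0.01) for at least 99.94% of values a library, 14457896 to 16156712 fragments a library.

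In R 4.3.3, limma 3.58.1 (trend) was fitted to log2(FPKM + 0.5) for genes with a mean of at least 0.5 FPKM, knockout against control in each table, and for the interaction of tissue and genotype over 12 libraries, with Benjamini-Hochberg over all genes tested and a threshold of 0.05. Fold changes on this scale understate genes of low FPKM. Single genes were also given an exact two-sided permutation test. The steps were tested on simulated data. Alternatives were the pseudocount, the filter, 3 scalings, voom on recovered fragments, a replicate block, sex as a covariate in tumors and leaving out each library. The members and lists were chosen with earlier results of these data known, so lists are described by counts and medians without a test. Named genes are the members, Ctnnb1, some genes fixed by name (Ccnd3, Mxd4, Cdk4, Cdk6, Cdkn1a, Mki67), the most abundant gene of each marker list, and, in each related list and tissue, up to 2 genes per direction with the smallest unadjusted p at a mean of at least 1 FPKM; not all of these are printed, and the choice among them was made after their values were seen. Other genes named to show tissue identity or libraries that stand apart (Olfm4, Hoxd13, Fabp6, Cdx2) were picked after their values were seen. One result in a related list, with that list's counts in crypts, is not reported here.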

Additional observations from a re-analysis of the deposited data

How the results depend on the processing

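No member passed under any alternative run in crypts, tumors or their difference. Apart from leaving out libraries, 279 of 307 recomputed values kept their direction and side of the threshold (counts within 1.5 times), 24 reversed and 4 counts moved. Every reversed value is of a member with an adjusted p far above the threshold (limma, Benjamini-Hochberg), and the cause was not tested. Rescaling to the same total FPKM, which shifted the median of all genes by 0.13 in crypts, -0.10 in tumors (as did leaving the 50 highest genes out of the scaling) and -0.23 in the difference, gave Mxd1 0.04, Mnt 0.00, Ccnd1 0.02 and Ccnd2 0.10 in crypts, Myc -0.09, Mycn -0.05, Ccnd1 -0.09 and Odc1 -0.04 in tumors, and Mycn -0.17, Max -0.05, Ccnd1 -0.11 and Ccnd2 -0.09 for the difference. Quantile normalization gave Max -0.05 and Odc1 -0.04 in crypts and Myc -0.10, Ccnd1 -0.09 and Odc1 -0.07 in tumors. Rescaling without the 50 highest genes gave Mycn 0.00 and Max -0.03 in crypts and Myc -0.09, Mycn -0.05, Ccnd1 -0.09 and Odc1 -0.04 in tumors. With the male tumor libraries alone, an alternative chosen after seeing the data, Mycn was -0.17. Alternatives for the count of members with an unadjusted p under 0.05 were also chosen after seeing the data: in tumors it was 1 (Mycl) with quantile normalization and with male libraries alone, against 2, it was 3 (Mycl, Max and Mxd1) with sex as a covariate, and under both rescalings the 2 were Mycl and Mnt. Mycl was among them in every tumor alternative and for the difference. Without 1 library in turn this count was 0 to 1 in crypts (Mnt without wild-type replicate 2), 2 to 3 in tumors (with Max) and 1 to 2 for the difference (with Mxd1 without wild-type crypt replicate 1 or knockout crypt replicate 3). Genes called in crypts ran from 0 to 3, the 3 being Pgc, Gkn2 and Gkn1 without wild-type replicate 3. For the difference 1 gene passed with a pseudocount of 0.1 (Trbj1-6) and 1 with a replicate block (Trbj1-3), all named after their values were seen. Equal replicate numbers showed no pairing across the groups of a tissue (correlations -0.12 to 0.05), and the replicate block left the members' directions as they were. Leaving out libraries reversed these, given as lowest to highest log2 fold change: in crypts Myc -0.18 to 0.68, Mycn -0.13 to 0.18, Max -0.06 to 0.10, Mxd1 -0.37 to 0.11, Mnt -0.37 to 0.02, Ccnd1 -0.32 to 0.13 and Ccnd2 -0.20 to 0.17. In tumors they were Myc -0.20 to 0.16, Mycn -0.12 to 0.26, Ccnd1 -0.11 to 0.11, Ccnd2 -0.20 to 0.46 and Odc1 -0.04 to 0.23. For the difference they were Myc -0.66 to 0.20, Mycn -0.15 to 0.23, Mxi1 -0.32 to 0.12, Mnt -0.24 to 0.14, Ccnd1 -0.10 to 0.34, Ccnd2 -0.16 to 0.50 and Odc1 -0.13 to 0.13. Sex as a covariate was not run in crypts, where all libraries were male. Depth limits Mycn in crypts, with 24 to 47 fragments a library.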
